A study of Mus musculus with 11 samples.

Results

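The globin genes were followed through RNA-seq of single fetal livers from mouse embryos at E15.5, in 3 wild-type (WT), 2 Tnfr1-/-, 3 Casp8-/- Mlkl-/- and 3 Casp8-/- Tnfr1-/- livers, none of them treated. The 7 genes were Hba-x, Hba-a1 and Hba-a2 of the alpha-like cluster and Hbb-y, Hbb-bh1, Hbb-bs and Hbb-bt of the beta-like cluster, found by their Ensembl identifiers among the 52636 genes that each table lists. Casp8 encodes caspase-8, Tnfr1 (gene symbol Tnfrsf1a) a receptor for TNF, and Mlkl the protein that executes necroptosis. All mutations were germline, on a C57BL/6 N background, so every cell of the embryo carried them, and whole livers were sequenced rather than sorted red cell precursors. The Casp8-/- Tnfr1-/- livers thus share the loss of Tnfr1 with the Tnfr1-/- livers and the loss of Casp8 with the Casp8-/- Mlkl-/- livers.

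Hemoglobin is a tetramer of alpha-like and beta-like globin chains, each of which holds a heme group. The first red cells of the mouse, made in the yolk sac, use the embryonic chains encoded by Hba-x (zeta), Hbb-y (epsilon-y) and Hbb-bh1 (beta-h1). Red cells made in the fetal liver use the adult chains encoded by Hba-a1 and Hba-a2 (alpha) and by Hbb-bs and Hbb-bt (beta), and yolk sac red cells still circulate when the liver has taken over. In each cluster the embryonic genes lie nearer than the adult genes to a shared upstream enhancer region that drives them in erythroid cells.

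The annotation of GRCm38 places the alpha-like genes on the plus strand of chromosome 11, with Hba-x (ENSMUSG00000055609) at chr11:32276400-32278116, Hba-a1 (ENSMUSG00000069919) at chr11:32283511-32284465 and Hba-a2 (ENSMUSG00000069917) at chr11:32296489-32297298. The beta-like genes lie on the minus strand of chromosome 7, with Hbb-y (ENSMUSG00000052187) at chr7:103851749-103853216, Hbb-bh1 (ENSMUSG00000052217) at chr7:103841637-103843164, Hbb-bs (ENSMUSG00000052305) at chr7:103826534-103828096 and Hbb-bt (ENSMUSG00000073940) at chr7:103812524-103813996. All 7 encode protein, with 429 coding bases in the alpha-like and 444 in the beta-like genes.

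The members of each adult pair are nearly the same in their coding sequence, and this limits how reads can be assigned to them. Hba-a1 and Hba-a2 differ at 1 of 429 coding bases, and Hbb-bs and Hbb-bt at 1 of 444. The embryonic genes are much farther from one another and from the adult genes: Hbb-y and Hbb-bh1 differ at 105 of 444 coding bases, and Hba-x differs from Hba-a1 at 163 of 429. The following 40-base stretches of coding sequence, read 5′ to 3′ on the coding strand from the GENCODE M21 transcripts for GRCm38, show each pair side by side with the bases that differ within the pair in capitals. The adult stretches lie in exon 3 and hold the only coding difference of their pair, whereas the embryonic stretches lie in exon 1 and differ at 19 positions.
Hbb-bs (chr7:103826673-103826712, minus strand): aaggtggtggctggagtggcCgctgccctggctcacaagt
Hbb-bt (chr7:103812664-103812703, minus strand): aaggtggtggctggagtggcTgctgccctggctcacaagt
Hba-a1 (chr11:32284323-32284362, plus strand): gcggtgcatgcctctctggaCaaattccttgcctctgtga
Hba-a2 (chr11:32297140-32297179, plus strand): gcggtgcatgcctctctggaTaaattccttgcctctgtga
Hbb-y (chr7:103853090-103853129, minus strand): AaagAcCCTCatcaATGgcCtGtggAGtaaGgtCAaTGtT
Hbb-bh1 (chr7:103843048-103843087, minus strand): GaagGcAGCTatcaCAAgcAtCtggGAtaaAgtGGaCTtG

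Reads were 50 bases long and the authors used those that map uniquely. Of the 50-base stretches in its transcripts, Hba-a1 shares 72.3% and Hba-a2 89.3% with the other member of the pair, and Hbb-bs shares 53.2% and Hbb-bt 58.3%. Hba-x, Hbb-bh1 and Hbb-y share none with any other gene. The adult genes are therefore undercounted beside the embryonic ones, Hba-a2 the most, and levels of adult and embryonic genes are best compared between livers rather than within 1 liver. No member overlaps another annotated gene.

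The promoters of the adult alpha pair are nearly the same, unlike those of the adult beta pair. RefSeq windows of 250 bases before to 50 after the start (GRCm38.p6) were at hand for 6 of the 7 genes and not for Hbb-bh1. The Hba-a1 and Hba-a2 windows share 98.9% of their 20-base stretches, whereas no other pair of windows, Hbb-bs and Hbb-bt included, shares any. The 120 bases before the start are given below, 5′ to 3′ on the strand of the gene, to show how far the adult alpha copies match and the adult beta pair does not. The start is that of RefSeq and can lie inside the gene bounds given above. The stretches of Hba-x, Hba-a1 and Hbb-bs therefore fall within those bounds. Capitals mark the CCAAT box, the CACCC box with its longer form CCACACCC, the letters TATAA, and ATAAA, which can overlap the last of these. Both strands were searched, so a CCAAT box on the opposite strand appears as ATTGG.
Hba-x (chr11:32276480-32276599, plus strand): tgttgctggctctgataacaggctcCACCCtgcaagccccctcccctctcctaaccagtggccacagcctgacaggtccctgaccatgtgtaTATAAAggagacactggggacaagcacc
Hba-a1 (chr11:32283552-32283671, plus strand): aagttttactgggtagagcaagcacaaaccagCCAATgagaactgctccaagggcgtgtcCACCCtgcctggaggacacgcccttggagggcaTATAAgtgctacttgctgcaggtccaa
Hba-a2 (chr11:32296372-32296491, plus strand): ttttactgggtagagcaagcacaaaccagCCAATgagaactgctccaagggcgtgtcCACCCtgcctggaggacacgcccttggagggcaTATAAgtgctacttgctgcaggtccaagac
Hbb-y (chr7:103853208-103853327, minus strand): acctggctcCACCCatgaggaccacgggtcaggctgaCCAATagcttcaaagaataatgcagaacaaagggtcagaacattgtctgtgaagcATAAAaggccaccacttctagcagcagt
Hbb-bs (chr7:103827929-103828048, minus strand): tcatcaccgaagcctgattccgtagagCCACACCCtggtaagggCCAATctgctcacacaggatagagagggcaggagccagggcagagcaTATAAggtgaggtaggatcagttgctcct
Hbb-bt (chr7:103813924-103814043, minus strand): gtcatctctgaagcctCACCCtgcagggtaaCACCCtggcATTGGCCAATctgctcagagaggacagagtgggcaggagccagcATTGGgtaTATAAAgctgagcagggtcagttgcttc

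CACCC was present in all 6 windows, as it was in 57.7% of all 32544 RefSeq promoters of that length, and CCAAT in 5 of them, all but Hba-x, against 37.4% of all promoters. TATAA was found in 5, all but Hbb-y, against 24.8%, and ATAAA in Hba-x, Hbb-y and Hbb-bt, against 39.9%. CCACACCC, the longer form bound by the erythroid factor KLF1, stood only in the Hbb-bs window, at bases -93 to -86 from the start, and in 3.57% of all promoters. AGATAA, a form of the site of GATA1, was found only in Hbb-bs, at bases -210 to -205, and in 11.2% of all promoters. Other forms of that site, such as the TGATAA in the Hba-x stretch above, were not searched. These matches describe letters in a short window and no binding was measured.

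Between 23129212 and 35819339 reads were counted per liver. Casp8-/- Tnfr1-/- replicate 3 stood apart: over the 17243 genes tested its highest correlation with another liver was 0.891, against 0.962 to 0.993 for the other livers, and its TMM factor was 0.758. Casp8-/- Mlkl-/- replicate 1 had the next lowest factor, 0.812, against 1.01 to 1.09 elsewhere. The labels hold in part against the targeted genes. Casp8 was at 7.82 to 10.2 CPM (counts scaled to a common library size by TMM factors) in the Casp8-/- Mlkl-/- and at 11.5 to 21.9 in the Casp8-/- Tnfr1-/- livers against 27.7 to 33.9 in the others, and Mlkl at 0.730 to 1.22 in the Casp8-/- Mlkl-/- livers against 3.68 or more elsewhere. Tnfrsf1a was at 49.8 and 50.5 CPM in the Tnfr1-/- livers, within the WT range of 47.1 to 53.4, and at 76.9, 76.0 and 425 in the Casp8-/- Tnfr1-/- livers, all above every WT liver. A loss of Tnfr1 was thus not seen in these counts, which do not show which exons the reads come from and so do not check this allele.

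Of the summed levels of cell type markers, only the neutrophil sum set all Casp8-/- Tnfr1-/- livers apart from the others. The other sums differed in 1 or both of the livers that stood apart. The summed level of 10 neutrophil markers was 5351, 6612 and 14542 CPM in the Casp8-/- Tnfr1-/- livers, 3439 in Casp8-/- Mlkl-/- replicate 1 and 1158 to 1679 in the others. Its members went opposite ways in Casp8-/- Tnfr1-/- replicate 3, where S100a8, S100a9, Ltf and Ngp were the highest of all livers (3297 CPM for S100a8) and the granule enzyme genes Mpo, Elane, Prtn3 and Ctsg the lowest (53.4 CPM for Mpo against 336 to 819 elsewhere). The sum of 12 hepatocyte markers was 247323 CPM in Casp8-/- Mlkl-/- replicate 1 and 122281 in Casp8-/- Tnfr1-/- replicate 3, against 54398 to 83239 elsewhere, although Hnf4a, a hepatocyte transcription factor of the list, was lowest in the latter, at 121 CPM against 207 to 406. The sum of 12 striated muscle markers, genes that liver should lack, was 1988 CPM in Casp8-/- Tnfr1-/- replicate 3 and 16.6 to 43.1 elsewhere. The sum of 14 macrophage markers was 2071 CPM in Casp8-/- Mlkl-/- replicate 1, 482 in Casp8-/- Tnfr1-/- replicate 3 and 698 to 964 elsewhere, and that of 9 endothelial markers was 662 and 818 CPM in those livers and 432 to 522 elsewhere. In every liver at most 4 muscle markers and 1 macrophage marker were at 0, and no marker of the other lists. The part of these differences in the globin values was not tested, and in whole livers fewer cells of a type and less RNA per cell cannot be told apart.

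Globin transcripts were a large share of the RNA of every liver and fell nearly wholly to the adult genes. The 7 genes took 6.17%, 5.36% and 5.30% of the counts in WT, 4.93% and 4.47% in Tnfr1-/-, 3.70%, 4.34% and 4.01% in Casp8-/- Mlkl-/- and 3.72%, 3.95% and 13.0% in Casp8-/- Tnfr1-/- livers. Every WT liver was thus above every liver of the other genotypes but Casp8-/- Tnfr1-/- replicate 3. Per kilobase of the deposited width, the order of levels was Hbb-bs, Hbb-bt, Hba-a1 and Hba-a2 in all 11 livers, with the embryonic genes far below. That order depends on the correction for shared sequence: per unshared 50-base stretch, Hba-a2 came after Hbb-bs in all 11 livers, ahead of Hbb-bt and Hba-a1. The plot of levels by gene and liver shows all 7.

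**Figure D1:**
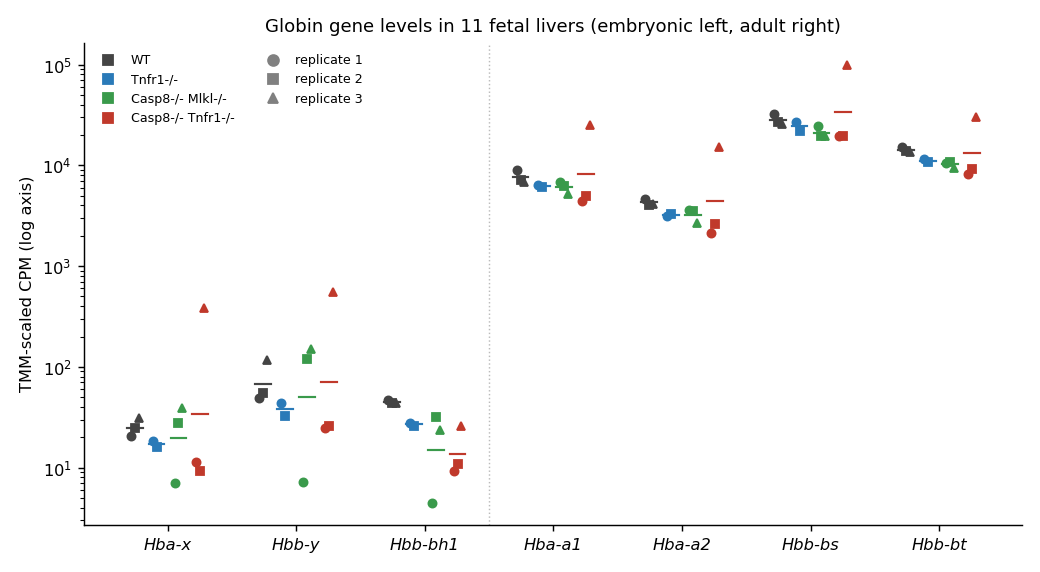
TMM-scaled CPM (log axis) of the 3 embryonic globin genes (left of the dotted line) and the 4 adult ones (right) in each of 11 fetal livers. Points are livers, coloured by genotype and shaped by replicate number, and horizontal bars are geometric means per genotype. Casp8-/- Tnfr1-/- replicate 3 (red triangle) is the highest liver for every gene but Hbb-bh1, while the other 2 Casp8-/- Tnfr1-/- livers lie at the bottom of the range for the adult alpha genes and Hbb-bt, and Casp8-/- Mlkl-/- replicate 1 (green circle) is lowest for all 3 embryonic genes.

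Hbb-bs, the most abundant of the genes, was at 32071, 26649 and 25877 CPM in WT, 27202 and 21895 in Tnfr1-/-, 24584, 19488 and 19342 in Casp8-/- Mlkl-/-, and 19736, 19499 and 99918 in Casp8-/- Tnfr1-/- livers. Hbb-bt, the other adult beta gene, was at 15167, 13931 and 13686 CPM in WT, 11526 and 10776 in Tnfr1-/-, 10608, 10799 and 9378 in Casp8-/- Mlkl-/-, and 8232, 9250 and 30481 in Casp8-/- Tnfr1-/- livers. For Hbb-bt the WT livers lay above all livers but Casp8-/- Tnfr1-/- replicate 3, whereas for Hbb-bs they overlapped the Tnfr1-/- livers. Replicates 1 and 2 of Casp8-/- Tnfr1-/- were the lowest of all 11 livers for Hbb-bt but not for Hbb-bs.

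Hba-a1 was at 8998, 7222 and 6885 CPM in WT, 6333 and 6059 in Tnfr1-/-, 6836, 6184 and 5183 in Casp8-/- Mlkl-/-, and 4477, 4979 and 25020 in Casp8-/- Tnfr1-/- livers. Hba-a2 was at 4669, 4077 and 4172 CPM in WT, 3149 and 3300 in Tnfr1-/-, 3595, 3562 and 2653 in Casp8-/- Mlkl-/-, and 2153, 2598 and 15287 in Casp8-/- Tnfr1-/- livers. In both genes the 3 WT livers were above every other liver but Casp8-/- Tnfr1-/- replicate 3, and Casp8-/- Tnfr1-/- replicates 1 and 2 were below all 8 livers of the other genotypes. The spread of the adult genes over the other 10 livers was small, as the highest was 2.01 times the lowest for Hba-a1, 2.17 times for Hba-a2, 1.84 times for Hbb-bt and 1.66 times for Hbb-bs.

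The embryonic genes were far lower and varied far more between livers. Hbb-y, the epsilon-y gene, was at 49.0, 54.5 and 116 CPM in WT, 44.3 and 32.2 in Tnfr1-/-, 7.26, 119 and 150 in Casp8-/- Mlkl-/-, and 24.7, 26.0 and 549 in Casp8-/- Tnfr1-/- livers. The highest liver was 75.6 times the lowest, and 20.7 times without Casp8-/- Tnfr1-/- replicate 3. Hba-x, the zeta gene, followed a like order, at 20.5, 24.6 and 30.8 CPM in WT, 18.4 and 16.0 in Tnfr1-/-, 7.01, 28.0 and 38.7 in Casp8-/- Mlkl-/-, and 11.3, 9.22 and 388 in Casp8-/- Tnfr1-/- livers. For both genes the genotypes overlapped, replicate 3 of Casp8-/- Tnfr1-/- was the highest liver and Casp8-/- Mlkl-/- replicate 1 the lowest, and replicates 1 and 2 of Casp8-/- Tnfr1-/- came next after it from below.

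Hbb-bh1, the beta-h1 gene, went another way. It was at 47.4, 44.2 and 43.3 CPM in WT, 27.8 and 26.0 in Tnfr1-/-, 4.46, 31.6 and 23.5 in Casp8-/- Mlkl-/-, and 9.24, 10.9 and 26.1 in Casp8-/- Tnfr1-/- livers. All 3 WT livers were above all 8 livers of the mutant genotypes, and Casp8-/- Tnfr1-/- replicate 3, the highest liver for the other 6 genes, was near the Tnfr1-/- livers. The counts behind these levels were lowest in Casp8-/- Mlkl-/- replicate 1, at 110 reads, and 303 or more in the other livers, so counting error is small beside the spread between livers.

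Across the 11 livers, the Pearson correlation of log2 CPM was 0.993 between Hba-a1 and Hba-a2, 0.959 between Hbb-bs and Hbb-bt, and 0.928 between Hba-x and Hbb-y. Without Casp8-/- Tnfr1-/- replicate 3 these values were 0.964, 0.871 and 0.958. The last pair is from different chromosomes, while Hba-x and its neighbour Hba-a1 gave 0.837 with that liver and 0.222 without it. Hbb-bh1 gave 0.638 with Hbb-y in all 11 livers and 0.782 without that liver, and 0.833 with Hba-x without it. These are descriptions over livers of 4 genotypes that share their library sizes, and the adult pairs also share stretches of sequence.

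No globin gene passed the test in any comparison between genotypes. The test was edgeR's quasi-likelihood test fitted on all genes and all 11 livers, with Benjamini-Hochberg adjusted p under 0.05 as the call. It called 0 of 7 in Casp8-/- Tnfr1-/- against WT, where 5.1% of all genes were called higher, 0.702% lower and 5.8% in either direction. It called 0 of 7 against Tnfr1-/- (2.05% of all genes higher, 0.122% lower, 2.17% in all) and 0 of 7 against Casp8-/- Mlkl-/- (1.54% higher, 0.116% lower, 1.65% in all). Among the other genotypes it also called 0 of 7, where 0% of all genes were called in Tnfr1-/- against WT and 0.0058% in Casp8-/- Mlkl-/- against WT and against Tnfr1-/-. An unadjusted p under 0.05 was reached by 1 of 7 in Casp8-/- Tnfr1-/- against WT, beside 24.6% of all genes, and by 0 in each of the other 5 comparisons (16.3% of all genes against Tnfr1-/-, 15.3% against Casp8-/- Mlkl-/- and 1.08% to 5.63% among the other genotypes). DESeq2 and limma-voom without quality weights called 0 of 7 throughout. In Casp8-/- Tnfr1-/- against WT, Tnfr1-/- and Casp8-/- Mlkl-/-, DESeq2 called 13.7%, 7.36% and 5.46% of all genes and limma-voom 4.68%, 2.27% and 1.78%. Among the other genotypes these shares were 0.522% or less.

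The gene with the small unadjusted p was Hbb-bh1. Its log2 fold change in Casp8-/- Tnfr1-/- against WT was -1.55 with a 95% interval from -2.88 to -0.22 (edgeR adjusted p = 0.149), against -0.81 in the comparison with Tnfr1-/- (adjusted p = 0.548) and -0.37 in that with Casp8-/- Mlkl-/- (adjusted p = 0.765). It was -0.74 in Tnfr1-/- against WT and -1.18 in Casp8-/- Mlkl-/- against WT (edgeR adjusted p = 1 and 0.880). All 3 mutant genotypes were compared with the same WT livers, so these differences are not independent of one another.

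The other 6 genes had positive fitted differences in Casp8-/- Tnfr1-/- livers with wide intervals. Against WT the log2 fold change of Hba-x was 2.42 (95% interval -0.32 to 5.16, edgeR adjusted p = 0.250) and that of Hbb-y was 1.45 (-1.29 to 4.19, adjusted p = 0.471). Those of the adult genes were smaller, at 0.72 for Hbb-bs (-0.59 to 2.02), 0.63 for Hba-a2 (-0.76 to 2.03), 0.58 for Hba-a1 (-0.70 to 1.86) and 0.16 for Hbb-bt (-0.84 to 1.17), with edgeR adjusted p between 0.452 and 0.832. The median over the 7 genes was 0.63 against WT, 0.92 against Tnfr1-/- and 1.03 against Casp8-/- Mlkl-/-, beside medians over all genes of -0.0015, -0.014 and -0.033.

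These positive values did not hold without a single liver. Without Casp8-/- Tnfr1-/- replicate 3, all 7 fitted differences were negative against each of the other 3 genotypes. Against WT, edgeR then called 3 genes lower, Hba-a2 (log2 fold change -0.85, adjusted p = 0.0160), Hbb-bt (-0.70, adjusted p = 0.0244) and Hba-a1 (-0.70, adjusted p = 0.0426), in a fit where 2.53% of all genes were called lower and 7.2% higher. Hbb-bh1 was at -2.15 (edgeR adjusted p = 0.0592), Hbb-y at -1.52 (0.366), Hba-x at -1.30 (0.189) and Hbb-bs at -0.52 (0.161). Against Tnfr1-/- and against Casp8-/- Mlkl-/- it called 0 of 7, beside 0.708% of all genes lower and 4.38% higher in the first and 0.331% lower and 2.79% higher in the second, and at an unadjusted p under 0.05 there was 1 gene in the first and 2 in the second, beside 17.6% and 13.8% of all genes. The plot of fold changes sets both fits side by side.

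**Figure D2:**
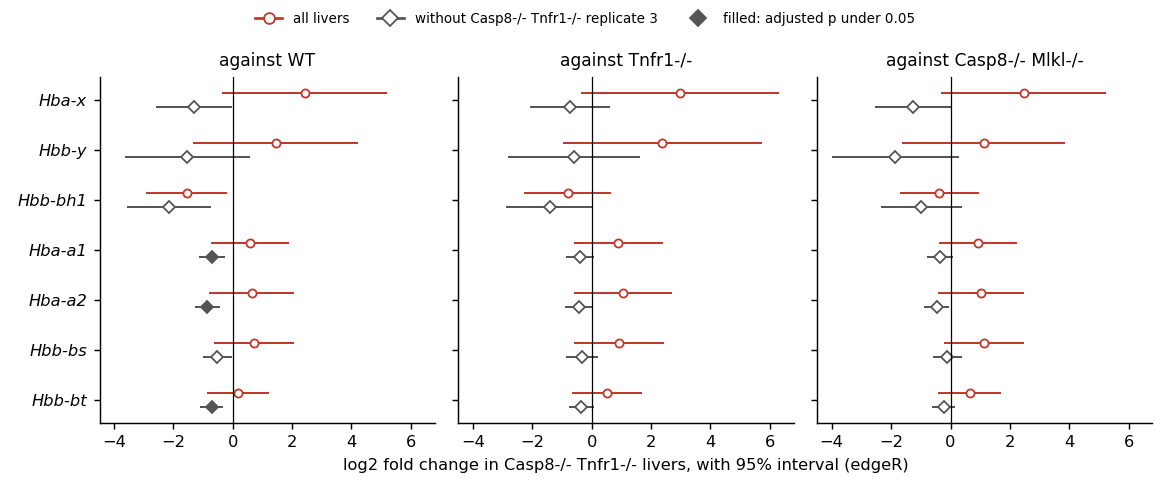
Log2 fold changes of the 7 globin genes in Casp8-/- Tnfr1-/- livers against WT, Tnfr1-/- and Casp8-/- Mlkl-/- livers, with 95% intervals from edgeR. Red circles are the fit of all 11 livers and grey diamonds the fit without Casp8-/- Tnfr1-/- replicate 3, filled where the adjusted p is under 0.05. Every diamond lies below 0, while of the circles only those of Hbb-bh1 do, and the intervals of the circles are wide.

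When Casp8-/- Mlkl-/- replicate 1 was left out as well, a choice made after the values had been seen, the estimated spread was smaller and edgeR called all 7 genes lower in Casp8-/- Tnfr1-/- livers against WT, beside 30.9% of all genes called in either direction. The called log2 fold changes were -2.15 for Hbb-bh1 (95% interval -2.42 to -1.88), -1.52 for Hbb-y (-2.14 to -0.90), -1.29 for Hba-x (-1.67 to -0.90), -0.84 for Hba-a2, -0.69 for Hbb-bt, -0.69 for Hba-a1 and -0.51 for Hbb-bs. Against Tnfr1-/- 5 of 7 were called lower, all but Hbb-y and Hbb-bs (22.7% of all genes called), with Hbb-bh1 at -1.41. Against Casp8-/- Mlkl-/- the 3 embryonic genes were called lower and no adult gene (17.9% of all genes called), with Hbb-y at -2.40, Hba-x at -1.68 and Hbb-bh1 at -1.45. The livers left out were the highest of their genotype (Casp8-/- Tnfr1-/-) and the lowest of theirs (Casp8-/- Mlkl-/-) for these 3 genes. Leaving them out thus favours this direction, and the calls give it no support. In the fit of all livers the edgeR adjusted p of these 3 genes was 0.376 to 0.765.

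In that same fit the other genotypes also differed in their globin genes. Hbb-bh1 was called lower in Tnfr1-/- than in WT livers (log2 fold change -0.74, edgeR adjusted p = 0.0312), as the only globin gene, where 0.603% of all genes were called. In Casp8-/- Mlkl-/- against WT, 5 of 7 were called lower, Hbb-bh1 at -0.70, Hbb-bs at -0.54, Hbb-bt at -0.50, Hba-a2 at -0.47 and Hba-a1 at -0.44, beside 6.19% of all genes. Against Tnfr1-/-, Hbb-y (1.81) and Hba-x (0.95) were called higher in Casp8-/- Mlkl-/- livers, beside 3.4% of all genes. The Casp8-/- Mlkl-/- liver left out was the lowest of all livers for both genes, so the choice favours this direction too. Each of these calls rests on 2 livers of at least 1 genotype.

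The embryonic to adult ratio within a liver needs no library size, and it did not differ between genotypes beyond the spread of livers. The beta-like ratio was taken as Hbb-y plus Hbb-bh1 over Hbb-bs plus Hbb-bt, in counts per base of the deposited width. It was 0.213%, 0.254% and 0.418% in WT, 0.193% and 0.186% in Tnfr1-/-, 0.0346%, 0.517% and 0.624% in Casp8-/- Mlkl-/-, and 0.125%, 0.133% and 0.449% in Casp8-/- Tnfr1-/- livers. The means were 0.295% ± 0.109 (SD, n = 3), 0.190% ± 0.00505 (n = 2), 0.392% ± 0.314 (n = 3) and 0.236% ± 0.185 (n = 3). The genotypes overlapped, and the widest spread, that of the Casp8-/- Mlkl-/- livers, took in all the other livers. An exact permutation test over all assignments of the livers to the 4 genotypes gave p = 0.971, and the exact two-sided permutation test of Casp8-/- Tnfr1-/- against the other 8 livers gave a difference of -0.26 in mean log2 ratio and p = 0.770, where 0.00606 is the smallest p that this test can give.

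The alpha-like ratio, Hba-x over Hba-a1 plus Hba-a2, was 0.120%, 0.174% and 0.222% in WT, 0.156% and 0.136% in Tnfr1-/-, 0.0538%, 0.228% and 0.396% in Casp8-/- Mlkl-/-, and 0.137%, 0.0975% and 0.763% in Casp8-/- Tnfr1-/- livers. The means were 0.172% ± 0.0506 (SD, n = 3), 0.146% ± 0.0139 (n = 2), 0.226% ± 0.171 (n = 3) and 0.333% ± 0.373 (n = 3). Casp8-/- Tnfr1-/- replicate 3 was highest and Casp8-/- Mlkl-/- replicate 1 lowest, and all 4 genotypes overlapped. The exact permutation tests gave p = 0.952 over the 4 genotypes and p = 0.564 for Casp8-/- Tnfr1-/- against the other 8 livers, with a difference of 0.42 in mean log2 ratio. Without Casp8-/- Tnfr1-/- replicate 3 that difference was -0.49 (exact permutation p = 0.444) for the alpha-like and -0.86 (exact permutation p = 0.356) for the beta-like ratio. Both ratios are too high by the share of adult reads that do not map uniquely: per unshared 50-base stretch instead of per base, the beta-like ratio ranged from 0.0181% to 0.325% and the alpha-like from 0.00910% to 0.125%.

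**Figure D3:**
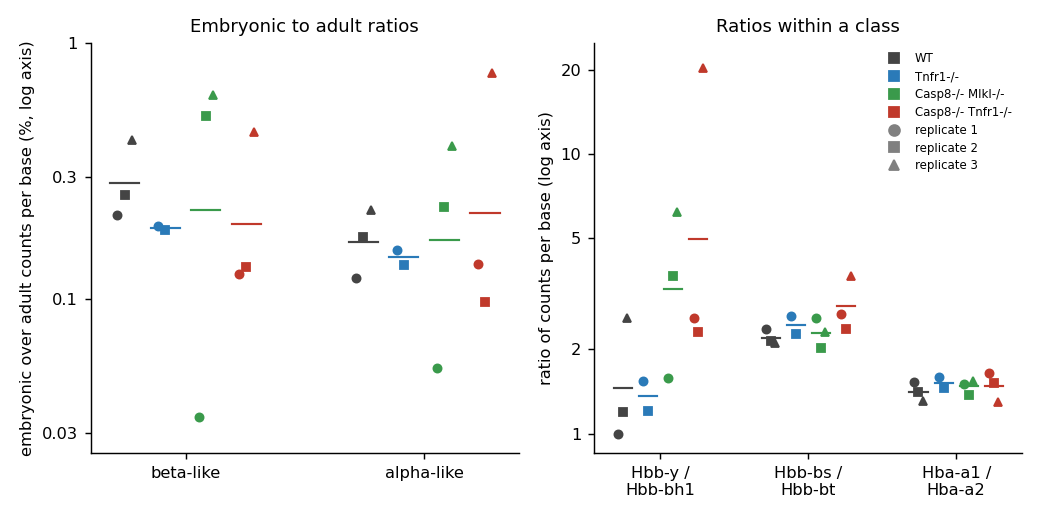
Ratios of globin counts per base of gene width within each liver, on log axes: embryonic over adult in percent for the beta-like and alpha-like genes (left), and Hbb-y over Hbb-bh1, Hbb-bs over Hbb-bt and Hba-a1 over Hba-a2 (right). Points are livers, coloured by genotype and shaped by replicate number, and bars are geometric means. The embryonic to adult ratios of the genotypes overlap, and the Hbb-y to Hbb-bh1 ratio of 20.4 in Casp8-/- Tnfr1-/- replicate 3 stands apart from 1.0 to 6.20 in the other livers.

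The 2 embryonic beta-like genes did not keep a constant ratio. Hbb-y over Hbb-bh1 was 1.0, 1.19 and 2.59 in WT, 1.54 and 1.2 in Tnfr1-/-, 1.58, 3.66 and 6.20 in Casp8-/- Mlkl-/-, and 2.58, 2.32 and 20.4 in Casp8-/- Tnfr1-/- livers. All Casp8-deficient livers of both genotypes were above the Tnfr1-/- livers and WT replicates 1 and 2, and WT replicate 3 lay among them. That grouping was not tested, and it rests on close values, 1.58 in Casp8-/- Mlkl-/- replicate 1 and 1.54 in Tnfr1-/- replicate 1. The exact permutation test gave p = 0.218 over the 4 genotypes and p = 0.121 for Casp8-/- Tnfr1-/- against the other 8 (difference in mean log2 ratio 1.35, Benjamini-Hochberg adjusted permutation p = 0.303 over the 5 ratios tested). Without Casp8-/- Tnfr1-/- replicate 3 that difference was 0.33 (exact permutation p = 0.667). Hbb-bh1 alone over the adult beta-like genes was 0.107%, 0.116% and 0.116% in WT, 0.0759% and 0.0844% in Tnfr1-/-, 0.0134%, 0.111% and 0.0867% in Casp8-/- Mlkl-/-, and 0.0350%, 0.0401% and 0.0210% in Casp8-/- Tnfr1-/- livers. Here the Casp8-/- Tnfr1-/- livers were below all others except Casp8-/- Mlkl-/- replicate 1, with replicate 3 on the side of the other 2, and the difference of -1.31 from the other 8 livers had an exact permutation p of 0.0424, not adjusted and tried as an alternative to the ratio with both genes.

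Within the adult beta pair, Hbb-bs over Hbb-bt was 2.37, 2.14 and 2.12 in WT, 2.64 and 2.27 in Tnfr1-/-, 2.59, 2.02 and 2.31 in Casp8-/- Mlkl-/-, and 2.68, 2.36 and 3.67 in Casp8-/- Tnfr1-/- livers. Casp8-/- Tnfr1-/- replicates 1 and 3 were above all 8 livers of the other genotypes. The difference of 0.31 in mean log2 ratio had an exact permutation p of 0.0303, which became 0.152 after adjustment over the 5 ratios, and the permutation p over the 4 genotypes was 0.199. Without replicate 3 the difference was 0.13 (exact permutation p = 0.222). Within the adult alpha pair, Hba-a1 over Hba-a2 stayed between 1.30 and 1.65 in all 11 livers per base of width but between 0.512 and 0.650 per unshared stretch, so which of the pair is higher depends on that correction. Between Casp8-/- Tnfr1-/- and the other 8 livers the exact permutation test gave a difference of 0.02 with p = 0.830. Alpha-like over beta-like counts per base also stayed between 0.239 and 0.328 in all 11 livers. That ratio is too low, as the adult alpha genes share more of their stretches (72.3% and 89.3%) than the adult beta genes (53.2% and 58.3%). Per unshared stretch, WT replicate 1 was at 42.6 and 70.7 CPM for Hba-a1 and Hba-a2 and at 95.7 and 55.6 for Hbb-bs and Hbb-bt.

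Of 10 other members of the globin family, 4 passed the filter on low counts, and edgeR called 0 of them in all 6 comparisons, with 1, 1 and 2 at an unadjusted p under 0.05 (24.6%, 16.3% and 15.3% of all genes) in Casp8-/- Tnfr1-/- against WT, Tnfr1-/- and Casp8-/- Mlkl-/-. Hbq1b, a theta-globin gene of the alpha cluster, was at 21.9, 17.9 and 21.8 CPM in WT, 19.6 and 18.9 in Tnfr1-/-, 19.0, 15.3 and 14.4 in Casp8-/- Mlkl-/-, and 15.53, 13.3 and 129 in Casp8-/- Tnfr1-/- livers. Like the adult genes it was highest in Casp8-/- Tnfr1-/- replicate 3, but its WT livers overlapped the Tnfr1-/- and Casp8-/- Mlkl-/- livers. Its near copy Hbq1a ranged from 1.13 to 3.93 CPM and the pseudogene Hba-ps4 from 2.41 to 27.6, and both were highest in Casp8-/- Tnfr1-/- replicate 3 and lowest in replicate 1 of that genotype. Cygb, which encodes cytoglobin of non-erythroid cells, was at 20.5 CPM in Casp8-/- Tnfr1-/- replicate 3 and 1.28 to 3.89 in the others, and its exons overlap those of Prcd. Hbb-bh0, Hbb-bh2, Hbb-bh3, Mb and Ngb had at most 10 counts in any liver, and Hba-ps3 was not analysed here.

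The regulators of the globin genes were described beside them. The list held 22 genes, all tested, and edgeR called 0 of them in Casp8-/- Tnfr1-/- against WT, Tnfr1-/- and Casp8-/- Mlkl-/-, with 5, 2 and 2 at an unadjusted p under 0.05, near or below the 24.6%, 16.3% and 15.3% of all genes. Their median log2 fold changes were -0.41, -0.51 and -0.38, and against WT none of the 22 was positive. Klf1, the erythroid factor that activates the adult beta genes, was at 332, 324 and 305 CPM in WT, 269 and 263 in Tnfr1-/-, 171, 353 and 279 in Casp8-/- Mlkl-/-, and 181, 182 and 81.0 in Casp8-/- Tnfr1-/- livers (log2 fold change against WT -1.11, edgeR adjusted p = 0.0754). Gata1, the master factor of red cell differentiation, was at 296, 293 and 285 CPM in WT, 247 and 242 in Tnfr1-/-, 146, 237 and 228 in Casp8-/- Mlkl-/-, and 187, 188 and 96.5 in Casp8-/- Tnfr1-/- livers. All 3 Casp8-/- Tnfr1-/- livers were below the WT and Tnfr1-/- livers for both genes.

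Of the 22 regulators, 14 were at their lowest in Casp8-/- Tnfr1-/- replicate 3 and 3 at their highest. The latter were Sox6, another repressor of embryonic beta-like genes, at 399 CPM in that liver against 187 to 307 in the others, Nfe2 and E2f2, named here after their values were seen. The share of all genes at their lowest or highest in that liver, which stood apart from the others, was not computed. The 14 and 3 regulators thus have no background to be read against. Bcl11a, a repressor of embryonic beta-like genes, was at 87.5, 90.7 and 111 CPM in WT, 92.9 and 100 in Tnfr1-/-, 44.9, 116 and 107 in Casp8-/- Mlkl-/-, and 77.6, 78.9 and 9.46 in Casp8-/- Tnfr1-/- livers (log2 fold change against WT -0.80, edgeR adjusted p = 0.430). Myb, a factor of dividing progenitors, was at 11.1 CPM in that liver and 60.8 to 92.1 in the others. Lin28b, an RNA-binding protein of fetal blood formation, was at 10.7 CPM in it, 23.5 in Casp8-/- Mlkl-/- replicate 1 and 52.0 to 68.8 elsewhere. Casp8-/- Tnfr1-/- replicate 3 was the lowest liver for Bcl11a, Myb and Lin28b, and Casp8-/- Mlkl-/- replicate 1 the next lowest for all 3. The former was the highest for Hbb-y and Hba-x but not for Hbb-bh1 (26.1 CPM against 43.3 to 47.4 in WT). The latter was the lowest for Hbb-y. A link between regulator and globin levels was not tested.

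**Figure D4:**
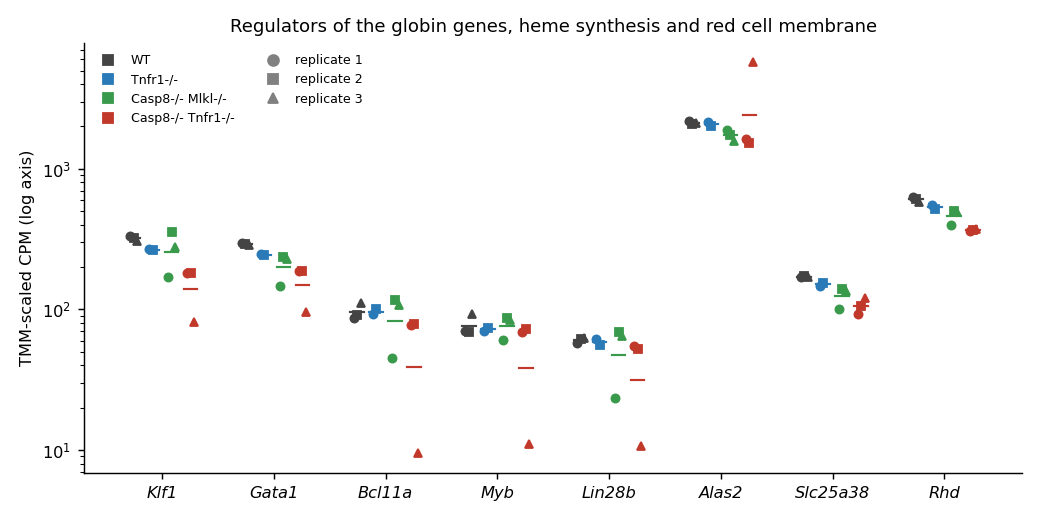
TMM-scaled CPM (log axis) of 5 regulators of the globin genes (Klf1, Gata1, Bcl11a, Myb, Lin28b), 2 genes of heme synthesis (Alas2, Slc25a38) and the red cell surface gene Rhd in 11 fetal livers. Points are livers, coloured by genotype and shaped by replicate number, and bars are geometric means. Casp8-/- Tnfr1-/- replicate 3 (red triangle) is lowest for the 5 regulators and highest for Alas2, and the 3 Casp8-/- Tnfr1-/- livers lie together below the others for Rhd.

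A few genes of heme synthesis and of the red cell membrane and maturation were lower in Casp8-/- Tnfr1-/- livers than in WT livers. Of 16 tested genes of heme synthesis and iron supply, 4 were called lower and none higher against WT: Alad (log2 fold change -0.83, edgeR adjusted p = 0.0435), Urod (-0.61, 0.0343) and Uros (-0.79, 0.0475), which encode enzymes of the pathway, and Slc25a38 (-0.69, 0.0324), the carrier that brings glycine into mitochondria. Of all genes, 0.702% were called lower and 5.1% higher in that comparison. The iron uptake genes Tfrc, Slc11a2 and Steap3 were not called. Slc25a38 was at 170, 173 and 169 CPM in WT, 148 and 154 in Tnfr1-/-, 100.5, 140 and 134 in Casp8-/- Mlkl-/-, and 92.0, 106 and 120 in Casp8-/- Tnfr1-/- livers, so that all Casp8-/- Tnfr1-/- livers were below all WT livers. Against WT, 7 of the 16 had an unadjusted p under 0.05, beside 24.6% of all genes. Against Tnfr1-/- and Casp8-/- Mlkl-/- edgeR called 0 of 16, with 7 and 0 at an unadjusted p under 0.05 (16.3% and 15.3% of all genes), and the median log2 fold changes were -0.49, -0.39 and -0.14 in the 3 comparisons.

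Alas2, the first and rate-limiting enzyme of heme synthesis in red cells, was highest in the same liver as the adult globin genes. It was at 2198, 2075 and 2128 CPM in WT, 2158 and 2001 in Tnfr1-/-, 1895, 1743 and 1570 in Casp8-/- Mlkl-/-, and 1620, 1539 and 5730 in Casp8-/- Tnfr1-/- livers (log2 fold change against WT 0.47, edgeR adjusted p = 0.509). Replicate 3 was the highest liver and replicate 2 of that genotype the lowest. Ahsp, the chaperone of alpha chains, was not analysed here.

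Of 22 genes of the red cell membrane and of red cell maturation, 2 were called lower against WT and none higher, Rhd, a surface protein of the Rhesus complex (log2 fold change -0.73, edgeR adjusted p = 0.0169), and Trim10, a protein of terminal red cell differentiation (-0.78, 0.0431). The shares of all genes were again 0.702% lower and 5.1% higher, and 7 of the 22 had an unadjusted p under 0.05, beside 24.6% of all genes. Rhd was at 628, 610 and 580 CPM in WT, 557 and 514 in Tnfr1-/-, 396, 502 and 492 in Casp8-/- Mlkl-/-, and 358, 370 and 371 in Casp8-/- Tnfr1-/- livers, with no overlap between Casp8-/- Tnfr1-/- and any other genotype. EdgeR called 0 of 22 against Tnfr1-/- and against Casp8-/- Mlkl-/-, with 7 and 2 at an unadjusted p under 0.05 (16.3% and 15.3% of all genes). The summed level of the 22 genes was 24277 to 26748 CPM in WT and Tnfr1-/-, 18949 to 24147 in Casp8-/- Mlkl-/- and 19405, 17439 and 28224 in Casp8-/- Tnfr1-/- livers, so replicate 3 was again the highest. Its members went different ways, as that liver was the highest for 8 of the 22 genes and the lowest for 3. Tnfr1-/- replicate 1 was also the highest for 8.

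Without Casp8-/- Tnfr1-/- replicate 3, edgeR called 3 of 22 regulators, 8 of 16 heme and iron genes and 6 of 22 membrane and maturation genes lower against WT, and none of them higher. Of all genes, 2.53% were called lower and 7.2% higher. At an unadjusted p under 0.05 there were 11, 15 and 18 of them, beside 23.8% of all genes. Against Tnfr1-/- it called 1, 0 and 4 of them lower, beside 0.708% of all genes, with 6, 12 and 15 at an unadjusted p under 0.05 beside 17.6% of all genes. Against Casp8-/- Mlkl-/- it called none, beside 0.331% of all genes lower and 2.79% higher, with 4, 1 and 3 at an unadjusted p under 0.05 beside 13.8% of all genes. All 16 heme and iron genes and all 22 membrane and maturation genes then had negative fitted differences against each of the 3 genotypes, as the 7 globin genes had. Medians over all genes were -0.0028 against WT, -0.0082 against Tnfr1-/- and -0.021 against Casp8-/- Mlkl-/-.

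The genes most like a globin gene over the 11 livers differed between the members. By Pearson correlation of log2 CPM, those nearest to Hbb-bs were Ppp1r15a (0.992), Bcl2l1 (0.991), Tspo2 (0.990), Cdr2 (0.989) and Lancl1 (0.988), of which Bcl2l1 encodes a survival protein of maturing red cells and Tspo2 an erythroid porphyrin-binding protein. Those nearest to Hbb-y were Stk24 (0.969), Stk3 (0.958), Psme4 (0.937), Spice1 (0.936) and Piga (0.935). Those nearest to Hbb-bh1 were Ppm1d (0.982), Ncapd2 (0.974), Psd (0.972), Kif22 (0.968) and Raly (0.966). No gene was on more than 1 of these 3 lists. Without Casp8-/- Tnfr1-/- replicate 3 the values ranged from 0.910 to 0.938 for Hbb-bs, 0.885 to 0.946 for Hbb-y and 0.966 to 0.983 for Hbb-bh1, and as the highest of 17243 genes over few livers they describe these livers only.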

How the data were processed

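RNA from 11 single E15.5 fetal livers (3 WT, 2 Tnfr1-/-, 3 Casp8-/- Mlkl-/-, 3 Casp8-/- Tnfr1-/-, by the sample titles) had been sequenced by the authors as 50-base single-end reads. The labels name a TruSeq v2 kit and a HiSeq4000, the study's methods a stranded kit and a NovaSeq, so use of strand is open. Reads were aligned to GRCm38 with GSNAP. The counter is not given in the sources used here. The deposited counts are raw numbers of reads on the exons of each gene, and the methods state that the study analysed uniquely mapped reads. The deposited width is a gene length in bases that is the same in all tables, and RPKM, also given by the authors per gene, served only as an alternative for the ratios. Libraries held 23129212 to 35819339 counts (median 25733946). Of 52636 genes, 52403 matched GENCODE M21.

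Genes were kept by filterByExpr (minimum count 10), which left 17243 and all 7 globin genes. The 4 genotypes were fitted together by edgeR 4.0.16 (TMM, glmQLFit, glmQLFTest; R 4.3.3) with Benjamini-Hochberg adjustment over all genes and a threshold of 0.05. CPM are TMM-scaled, and log2 CPM used a prior count of 2. Ratios were tested by exact two-sided permutation over livers, 3 against 8 and over 4 genotypes (Python 3.11.15); 3 livers against 3 cannot go below 0.1. Pairs of livers differed by at least 6.25 in chi-square per degree of freedom, so each was counted as a sample of its own. Livers are taken as single embryos; litters are not given. The scripts were tested on simulated data.

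The members, the lists and the tests were chosen with earlier results of these data known. Named genes were the 7 members, the detected members of the wider globin family, Klf1, Gata1, Bcl11a, Myb, Lin28b, Ahsp and Alas2, up to 4 further called genes per list, and the 5 genes nearest to Hbb-y, Hbb-bh1 and Hbb-bs. Casp8, Mlkl and Tnfrsf1a were named as the targeted genes, and Prcd for its overlap; single markers, Sox6, Nfe2, E2f2 and the iron uptake genes were named after their values were seen. Alternatives were DESeq2 1.42.0 (size factors, Wald test), limma 3.58.1 (voom, with and without quality weights), other filters and scalings, the replicate number as a block, and each liver left out. Leaving out Casp8-/- Tnfr1-/- replicate 3 and Casp8-/- Mlkl-/- replicate 1 together was chosen after seeing the data, as the livers with the lowest TMM factors.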

Additional observations from a re-analysis of the deposited data

How the results depend on the processing

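The liver Casp8-/- Tnfr1-/- replicate 3 set the direction of most globin differences. With each liver left out in turn, or it and Casp8-/- Mlkl-/- replicate 1 together, the log2 fold change in Casp8-/- Tnfr1-/- against WT ranged from -0.70 to 0.96 for Hba-a1, -0.85 to 1.06 for Hba-a2, -1.30 to 2.98 for Hba-x, -0.52 to 1.09 for Hbb-bs, -0.70 to 0.48 for Hbb-bt and -1.52 to 1.97 for Hbb-y. Against Tnfr1-/- these ranges were -0.39 to 1.27, -0.44 to 1.47, -0.74 to 3.53, -0.32 to 1.29, -0.35 to 0.83 and -0.60 to 2.91, and against Casp8-/- Mlkl-/- they were -0.36 to 1.31, -0.46 to 1.46, -1.68 to 3.03, -0.10 to 1.51, -0.23 to 0.96 and -2.40 to 1.66, in the same order of genes. Hbb-bh1 against Casp8-/- Mlkl-/- ranged from -1.45 to 0.15. The number of globin genes called ranged from 0 to 7 in Casp8-/- Tnfr1-/- against WT, 0 to 5 against Tnfr1-/-, 0 to 3 against Casp8-/- Mlkl-/-, 0 to 1 in Tnfr1-/- against WT, and 0 to 5 and 0 to 2 in Casp8-/- Mlkl-/- against WT and Tnfr1-/-. The share of all genes called moved with them, from 1.55% to 30.9%, 0.180% to 22.7%, 0.481% to 17.9%, 0% to 0.603%, 0% to 6.19% and 0% to 3.4%. The log2 difference of Casp8-/- Tnfr1-/- from the other livers ranged from -0.86 to 0.0621 for the beta-like ratio, -0.49 to 0.997 for the alpha-like ratio, -0.0588 to 0.11 for Hba-a1 over Hba-a2, 0.13 to 0.45 for Hbb-bs over Hbb-bt and 0.33 to 1.90 for Hbb-y over Hbb-bh1.

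Quality weights in limma-voom, which gave Casp8-/- Tnfr1-/- replicate 3 a weight of 0.0383 and Casp8-/- Mlkl-/- replicate 1 a weight of 0.114, called 7, 2, 3, 1, 5 and 2 globin genes in those 6 comparisons, beside 30.6%, 25.1%, 15.7%, 1.57%, 6.04% and 3.0% of all genes. Against WT all 7 were called lower, with log2 fold changes of -0.70 for Hba-a1, -0.85 for Hba-a2, -1.18 for Hba-x, -0.50 for Hbb-bs, -0.70 for Hbb-bt, -1.26 for Hbb-y and -2.18 for Hbb-bh1. Against Tnfr1-/- Hbb-bt (-0.34) and Hbb-bh1 (-1.44) were called lower. Hba-a1 (-0.37), Hba-a2 (-0.43), Hba-x (-0.69), Hbb-bs (-0.29) and Hbb-y (-0.57) were not called there. Against Casp8-/- Mlkl-/- Hba-x (-1.64), Hbb-y (-2.31) and Hbb-bh1 (-1.31) were called lower. The livers with the low weights were the highest and the lowest of all for Hba-x and Hbb-y. No adult gene was called there, with Hba-a1 at -0.20, Hba-a2 at -0.29 and Hbb-bt at -0.16. A fit of WT and Tnfr1-/- alone called 3 genes, Hba-a2, Hbb-bt and Hbb-bh1, all lower, beside 1.62% of all genes. Hbb-bt against WT was -0.0678 with library totals and -0.0557 by limma-voom without weights. With the replicate block it was -0.0168 and 0 globin genes were called in each comparison. Livers with the same number had correlated deviations of -0.30 to 0.27 over 15 pairs, against -0.28 to 0.31 over 30 pairs with different numbers. As deviations from means of 2 or 3 livers offset one another, these values cannot decide whether the numbers pair livers. The beta-like difference was 0.0392 from Hbb-y alone and -1.31 from Hbb-bh1 alone. The causes of these shifts were not tested.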
